A study of Rattus norvegicus with 12 samples.

Results

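The 12 rat kidney grafts of the series, all sampled from renal cortex, were compared here by where they stand in the list of samples within their genotype. The first-listed set held wild-type graft replicates 1, 6 and 9 and ABCC2-/- graft replicates 5, 9 and 11. The last-listed set held wild-type replicates 4, 7 and 8 and ABCC2-/- replicates 3, 10 and 14. Each set thus had 6 arrays, 3 of each genotype. The labels give this division no name and no date, scan or extraction that would explain it. The 2 sets were selected on these same signals and control values, after they had been seen, so a difference between the sets is given as a description with its standard error and with no test. Its origin is unknown and may be technical.

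All grafts were placed in wild-type recipients, and the labels give the animals as male. The ABCC2-/- grafts, called deficient below, lack functional MRP2, and the wild-type grafts are their controls. The labels give no strain, age or time after transplantation, and they do not say that each graft came from its own donor, so p-values refer to the spread among these 12 arrays, which may be technical. RNA was amplified from the 3′ end in 1 cycle and hybridised to Affymetrix rat arrays, and the deposited values are linear signals of probe sets, each a group of short probes designed against the 3′ part of 1 transcript. The number of arrays limits the precision.

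MRP2, encoded by Abcc2, is an ATP-driven pump of the proximal tubule brush border that moves organic anions and conjugates into urine. A cortex sample mixes proximal tubule, other nephron segments, glomeruli, vessels and blood cells, and fewer cells of a type and less RNA per cell cannot be told apart in it. Arrays of this kind read the end of a transcript that survives reverse transcription from the poly-A tail. Probe sets placed far from that end, or in another 3′ end of the same gene, can read differently from probe sets close to it when RNA or labelling differ.

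The tissue label matched its markers. Slc34a1, the phosphate transporter of the proximal tubule, ran from 59.2 to 86.4 over the 12 arrays, Umod of the thick ascending limb from 45.8 to 65.8, and the water channel Aqp2 from 11.6 to 23.9. Alb, Cyp11b1 and Ckm, markers of liver, adrenal cortex and muscle, did not pass the filter on low signals. Adipoq, a fat marker, ran from 0.421 to 0.735, and the haemoglobin gene Hbb from 9.27 to 48.6.

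The control probe sets differed between the sets, mostly within the deficient grafts. The 3′ to 5′ signal ratio of Gapdh, a measure of how far labelling reached along a transcript, was 1.28 to 1.36 in the 3 last-listed deficient arrays and 1.64 to 1.93 in the other 9. The same ratio of beta-actin was 4.48 to 6.39 against 7.06 to 9.79. The groups did not overlap in either ratio. The 5S ribosomal RNA probe set was lowest in those 3 arrays, at 0.635 to 0.67, against 0.779 to 1.35 elsewhere. Hybridisation controls, bacterial transcripts added just before hybridisation, were 1.34-fold higher in the last-listed wild-type arrays and 1.46-fold higher in the last-listed deficient arrays. Wild-type replicate 4 stood apart at 13.4, against 6.16 to 7.42 in the other 5 wild-type arrays. The 100 brightest probe sets took 10.5% to 12.5% of the summed signal in the last-listed arrays and 8.98% to 10.3% in the first-listed. Apart from one covariate fit given below, the part of these measures in the results was not tested.

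Over 18625 probe sets that passed the filter, the last-listed arrays were higher than the first-listed for some transcripts and lower for others in both genotypes. Past 1.5-fold the same way in both genotypes were 191 probe sets higher in the last-listed arrays, or 1.03%, and 143 lower, or 0.768%. With each array centred on its median the same counts were 169 and 213. In wild-type grafts alone, 1250 probe sets (6.71%) were past 1.5-fold, 469 higher and 781 lower. In deficient grafts alone, 2294 (12.3%) were past it, 1334 higher and 960 lower. The deficient grafts also held the extremes: 41 probe sets were more than 4-fold higher in their last-listed arrays, and none was in wild-type grafts. The largest increase was 3.70-fold in wild-type grafts and 13.7-fold in deficient grafts.

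The wild-type and deficient set differences share no array. Across the 18625 probe sets they had a Pearson r of 0.44 and a Spearman rho of 0.44, given as a description because probe sets are not independent replicates and because the sets were chosen with these values known. Only 19 probe sets were past 1.5-fold higher in deficient and lower in wild-type grafts, and 18 the other way. All 6 last-listed arrays lay outside the range of the first-listed arrays of their own genotype for 1230 probe sets that were higher (6.6%) and for 2141 that were lower (11.5%). This pattern is called no overlap below. Another 290 probe sets had no overlap in opposite directions. Quantile normalisation gave 1513 higher and 1531 lower, so the surplus of lower probe sets depends on the scaling.

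**Figure D1:**
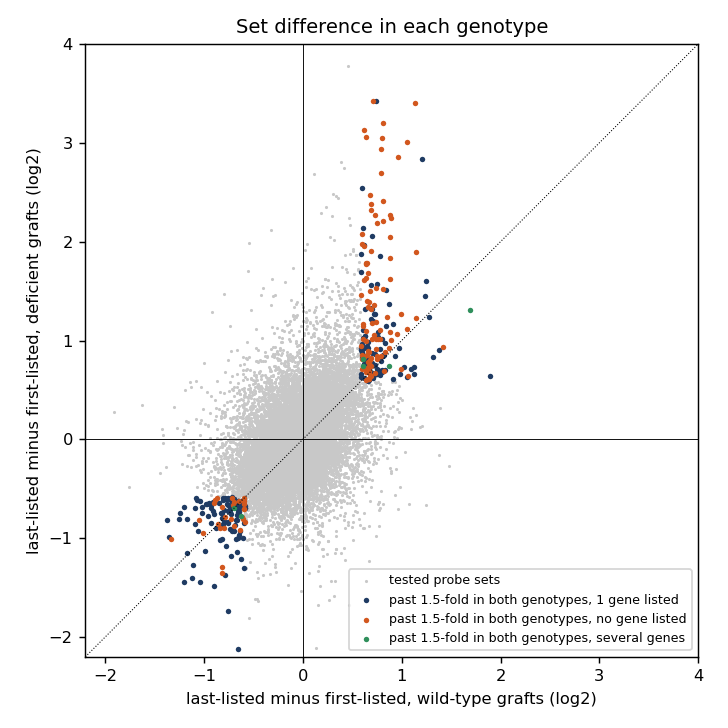
Each point is 1 of 18625 probe sets, with the log2 difference between last-listed and first-listed arrays in wild-type grafts on the x axis and in deficient grafts on the y axis. Coloured points are the 334 probe sets past 1.5-fold the same way in both genotypes, and above 2 on the y axis they lie well over the dotted line of equal differences.

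The genes with the largest positive differences were led by Cct6a, a subunit of the TRiC chaperonin that folds actin and tubulin. Its signal was 1.06, 1.05 and 0.898 in the first-listed wild-type arrays and 1.70, 1.79 and 1.52 in the last-listed ones. In deficient grafts it was 0.55, 0.698 and 0.584 against 7.21, 5.94 and 6.43. The last-listed deficient arrays thus stood far above all 9 others, and the wild-type sets also did not overlap. The log2 difference averaged over the genotypes was 2.08 ± 0.35 (SE, 12 arrays), 1.67-fold in wild-type and 10.7-fold in deficient grafts.

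Tram1, a protein of the channel that brings new proteins into the endoplasmic reticulum, read 0.353, 0.308 and 0.363 in first-listed and 0.776, 0.815 and 0.769 in last-listed wild-type arrays. In deficient grafts it read 0.323, 0.464 and 0.378 against 3.16, 2.60 and 2.51. Peli2, an E3 ubiquitin ligase of Toll-like receptor signalling, read 2.02, 2.02 and 1.73 against 2.50, 3.48 and 2.81 in wild-type grafts, and 1.70, 1.94 and 1.55 against 11.2, 8.28 and 10.7 in deficient grafts. Both genes were higher in every last-listed array than in any first-listed one, by 2.02 ± 0.23 and 1.57 ± 0.26 on the log2 scale (SE). Map3k12, a kinase upstream of JNK, read 3.74, 3.00 and 2.73 against 4.15, 5.38 and 4.85 in wild-type and 2.55, 3.11 and 3.14 against 13.5, 12.6 and 12.5 in deficient grafts.

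Among the 12 leading genes of this direction were also the intramembrane protease Sppl2a (log2 difference 1.38 ± 0.19), the kinase Dyrk2 (1.32 ± 0.17) and the ubiquitin-activating enzyme Uba6 (1.29 ± 0.19), each larger in deficient than in wild-type grafts. Zfp329 (1.42 ± 0.15), Vof16 (1.34 ± 0.17) and Taco1, which aids translation of mitochondrial COX1 (1.26 ± 0.26), differed by similar amounts in both genotypes. Prrc2c (1.17 ± 0.12) and a probe set of the elongation factor subunit Eef1g (1.23 ± 0.24) completed the 12. These values are of single probe sets. Other tested probe sets of Sppl2a differed by -0.0009, 0.05 and -0.29, and those of Dyrk2 by -0.41, -0.21 and -0.34. Those of Uba6 differed by 0.17, -0.20 and 0.11, and those of Prrc2c by 0.48 and 0.11. The other probe set of Zfp329 differed by -0.39 and that of Eef1g by -0.10. Vof16 and Taco1 were near the lowest signals tested, from 0.0866 to 0.501 and from 0.0548 to 0.546.

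Some probe sets with no gene in the annotation differed as much. Probe set 1385889_at read 5.4, 4.48 and 4.03 against 8.33, 13.1 and 9.49 in wild-type grafts and 3.53, 4.47 and 4.48 against 49.7, 38.3 and 44.3 in deficient grafts, a 10.6-fold difference in the latter. Probe set 1381482_at gave the largest of all, 13.7-fold in deficient and 1.37-fold in wild-type grafts. Of the 191 higher probe sets, 50.8% had no listed gene, compared with 22.5% of all tested probe sets and with 19.6% of the 143 lower ones. Many probe sets without a listed gene on such arrays come from expressed sequence tags.

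The higher probe sets often stood alone within their gene. Of the 90 with 1 listed gene, 64 had another tested probe set of that gene, 107 in all, and only 2 of these 107, a pair of Zfp91 counted from each side, were also past 1.5-fold higher in both genotypes. The median log2 difference was 0.836 for the 90 and -0.0965 for the other probe sets, 38 of which were above 0, where 7799 of all 18625 probe sets were. The 90 had been chosen for their size and the others had not, so some gap between the medians follows from the choice. The other probe set of Cct6a read 10.6, 11.5 and 11.4 in first-listed and 9.78, 9.34 and 10.4 in last-listed wild-type arrays, and 10.5, 10.9 and 10.7 against 10.5, 10.1 and 9.99 in deficient ones. Its log2 difference was -0.13 ± 0.05 (SE), where the leading probe set gave 2.08. The other probe sets of Tram1 and Peli2 differed by -0.10 and -0.08.

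Gnb1, a beta subunit of heterotrimeric G proteins, had 3 tested probe sets. One was higher in the last-listed arrays, at 9.41 to 11.0 against 14.1 to 16.5 in wild-type grafts and 8.68 to 9.88 against 27.1 to 31.7 in deficient grafts. The other two were lower, by 0.74 ± 0.09 and 0.34 ± 0.08 on the log2 scale (SE). Where a gene's probe sets disagreed in this way, no level of the gene as a whole can be given.

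**Figure D2:**
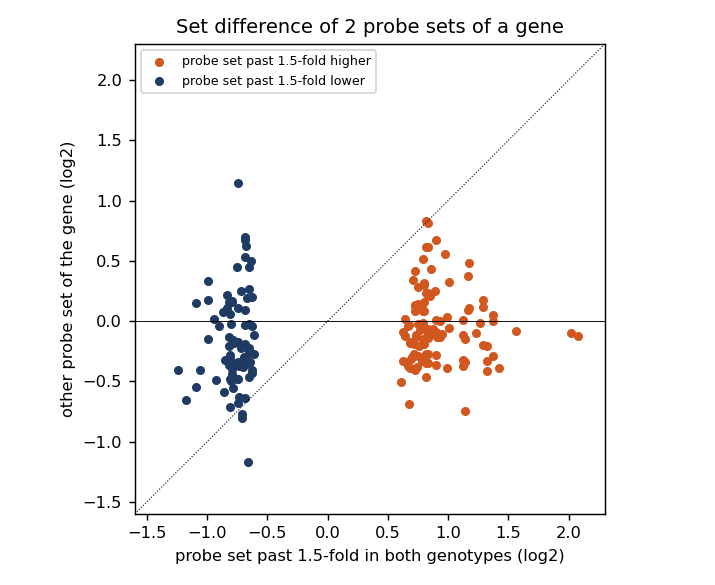
For genes with a probe set past 1.5-fold in both genotypes, the x axis gives the log2 set difference of that probe set and the y axis that of another tested probe set of the same gene. Of 107 other probe sets beside higher ones 38 lie above 0, and of 85 beside lower ones 59 lie below 0.

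Of 113 lower probe sets with 1 listed gene, 53 had another tested probe set, 85 in all. Of these, 4 were also past 1.5-fold lower, the pairs of Prcp and of the calcineurin subunit Ppp3cb counted from each side, and 59 were below 0, where 10826 of all 18625 probe sets were. The medians were -0.787 and -0.27, and the median over all genes was -0.09.

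Ckb, the brain-type creatine kinase that buffers ATP, was among the clearest genes lower in the last-listed arrays. It read 3.00, 3.10 and 2.79 against 1.34, 1.42 and 1.35 in wild-type grafts, and 2.0, 1.68 and 2.05 against 1.01, 0.573 and 0.839 in deficient grafts. The sets did not overlap in either genotype, and the differences were alike, 2.16-fold and 2.42-fold lower (log2 -1.19 ± 0.11, SE). Prcp, a lysosomal carboxypeptidase that cleaves angiotensin II, read 1.34, 1.65 and 1.87 against 0.588, 0.738 and 0.57 in wild-type and 1.12, 0.736 and 0.902 against 0.454, 0.595 and 0.349 in deficient grafts. Its second tested probe set was lower as well, by 0.66 ± 0.25 on the log2 scale.

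Klf6, an injury-responsive zinc finger transcription factor, read 1.48, 1.42 and 1.40 against 0.648, 0.749 and 0.528 in wild-type grafts and 1.25, 1.15 and 0.999 against 0.731, 0.612 and 0.60 in deficient grafts. That probe set gave a log2 difference of -0.99 ± 0.11 (SE), while the 2 others of Klf6 gave -0.15 ± 0.09 and 0.34 ± 0.23. Slc16a12, a creatine transporter of the proximal tubule, differed by -0.94 ± 0.13, and Rsbn1 by -0.99 ± 0.10. The other tested probe sets of Slc16a12 and Rsbn1 differed by 0.02 and 0.18. Serpine2, an inhibitor of serine proteases, differed by -0.96 ± 0.17.

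The 12 lower genes also held Ide, the insulin-degrading enzyme (-1.10 ± 0.21), the nuclear pore protein Nup107 (-1.19 ± 0.23) and Prrc2b (-1.06 ± 0.22). Other tested probe sets of Ide differed by 0.15 and -0.55, and that of Prrc2b by -0.40. Cntnap1, Thoc3 and the zinc importer Slc39a4, at -1.32 ± 0.33, -1.24 ± 0.33 and -1.16 ± 0.32, had signals under 0.5 in all 12 arrays and the widest standard errors of the 12. Each, like Nup107, had arrays below the floor of 0.0694 that was set before the log was taken.

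**Figure D3:**
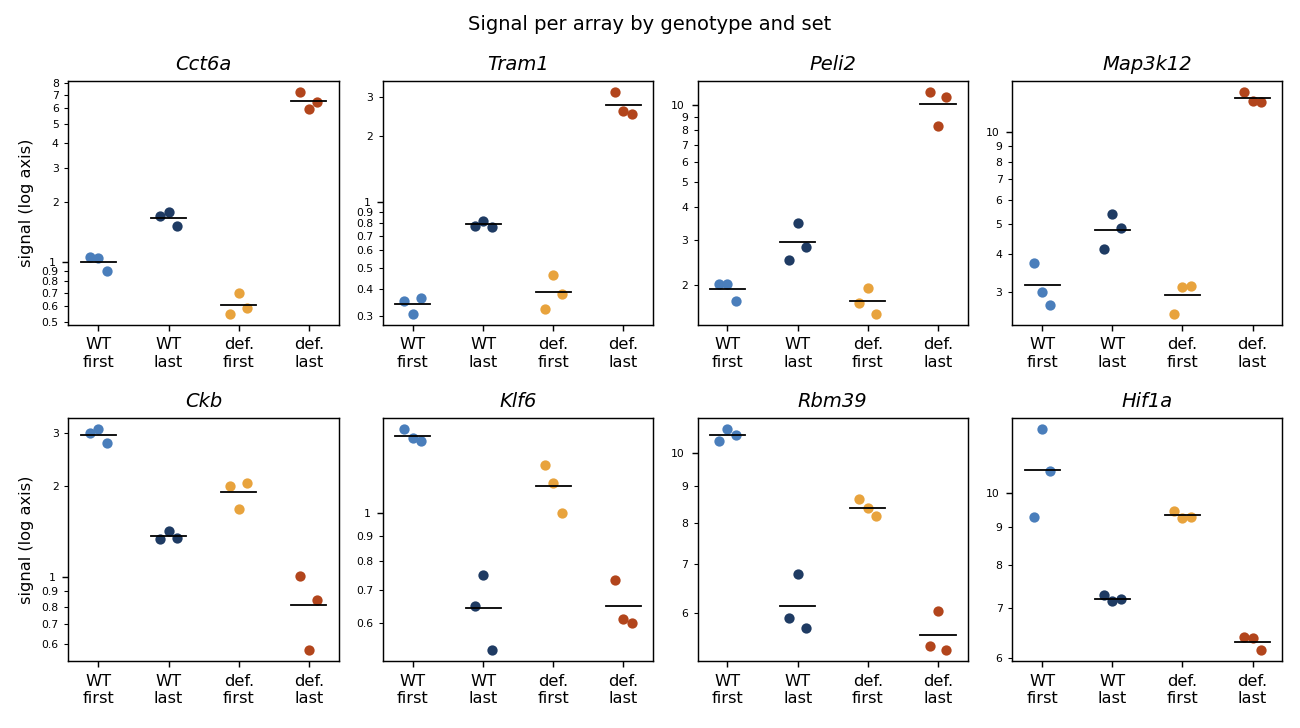
Signal of 8 genes, by 1 probe set each, on a log axis, 1 point per array, with the 3 arrays of each genotype and set side by side (WT, wild-type grafts; def., deficient grafts) and a line at the group mean. Other probe sets of some of these genes, such as Cct6a, Klf6 and Rbm39, differed otherwise. In the upper row the last-listed deficient arrays stand above all others (Cct6a 5.94 to 7.21), and in the lower row both last-listed groups stand below both first-listed ones (Ckb 0.573 to 1.42 against 1.68 to 3.10).

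Most genes of the cytosolic ribosome and of the respiratory chain were higher in the last-listed arrays of both genotypes. Lists of gene groups are described by 1 probe set per gene, over 10639 genes, of which 725 (6.81%) had no overlap and were higher and 1503 (14.1%) had no overlap and were lower. Of 31 tested genes of the cytosolic ribosome, which translates messenger RNA, 23 had no overlap and were higher and none was lower (74.2%). The median log2 difference was 0.24 in wild-type and 0.39 in deficient grafts. Rpl14 read 14.7, 16.7 and 16.2 against 23.8, 22.2 and 22.7 in wild-type grafts and 16.4, 18.0 and 17.4 against 28.3, 27.7 and 28.3 in deficient grafts (log2 0.62 ± 0.05, SE). Rps24 differed by 0.59 ± 0.05.

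The mitochondrial respiratory chain and ATP synthase, which make most of the ATP of tubule cells, gave the same medians. Of 60 tested subunit genes, 43 had no overlap and were higher (71.7%) and 2 had no overlap and were lower. Complex I accounted for 19 higher of 28, ATP synthase for 10 of 13, complex IV for 7 of 9, complex II for 4 of 4 and complex III for 3 of 6. Atp5pf, a stalk subunit of ATP synthase, read 29.8, 30.3 and 30.1 against 44.4, 40.7 and 39.4 in wild-type and 32.7, 31.0 and 32.5 against 48.9, 44.1 and 46.4 in deficient grafts (log2 0.50 ± 0.05). Ndufa5 of complex I differed by 0.52 ± 0.08. The 2 lower genes were Ndufs1 and Ndufv1, both catalytic core subunits of complex I, at -0.19 ± 0.04 and -0.25 ± 0.05 (named after their values were seen).

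Quantile normalisation, which gives all arrays one distribution, lowered these shares to 32.3% of ribosomal and 46.7% of respiratory chain genes, against 8.51% of all genes. It also moved the respiratory chain genes that were lower with no overlap from 2 to 8 of 60 (13.3%, against 9.97% of all genes) and those of the ribosome from 0 to 1 of 31. The medians were then 0.11 and 0.12, with all genes at -0.05. Under median centring the shares were 71.0% and 70.0%, against 6.0% of all genes.

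Gene span moved with the direction of the difference. The share of genes with no overlap and higher was 16.5% in the 20% of genes with the shortest span in the RefSeq gene table, up to 8019 bases, and 2.26% in the 20% with the longest. The share lower went from 7.36% to 17.6% over the same classes. Gene span includes introns and is not transcript length. Level moved with both directions alike: from the dimmest to the brightest 20% of probe sets, the share higher with no overlap went from 2.58% to 17.7% and the share lower from 1.18% to 20.4%. Among 560 genes in both the brightest 20% and the shortest 20%, 230 (41.1%) had no overlap and were higher and 50 (8.93%) were lower, while among 1560 bright genes outside the shortest class 13.1% were higher and 22.9% lower. Of the 560, 500 lay outside the ribosome and respiratory chain lists, and 36.4% of them were higher and 9.8% lower with no overlap. In the same class, 81.8% of 33 respiratory chain genes and 77.8% of 27 ribosomal genes were higher.

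The proteasome, which degrades ubiquitin-tagged proteins, differed by particle. Of 13 tested genes of its core, 7 had no overlap and were higher and none was lower, with a median of 0.27. Of 14 tested genes of the regulatory particle, 3 were higher and 4 lower with no overlap, with a median of -0.03. Over the whole list of 27 genes, 37.0% were higher and 14.8% lower with no overlap. Among all genes these shares were 6.81% and 14.1%, so the share lower was near that of all genes. Psma2 of the core read 11.0, 11.7 and 11.5 against 13.7, 15.4 and 14.2 in wild-type and 12, 12.3 and 12.1 against 22.5, 17.7 and 18.6 in deficient grafts (log2 0.51 ± 0.07). The regulatory subunits Psmd7 and Psmc3 were lower by 0.40 and 0.36 on the log2 scale. This division of the proteasome list was made after its values were seen.

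Splicing, stress and clock lists had medians below 0, as did all genes together, of which 6708 of 10639 were lower, with a median of -0.09. Of 36 RNA splicing factors 8 (22.2%, against 14.1% of all genes) had no overlap and were lower and 1 was higher, and the median was -0.12. Quantile normalisation gave 6 lower and 3 higher. The 1 higher gene was Son, whose brightest probe set differed by 0.62, while its other tested probe sets differed by -0.68, -0.36, -0.33 and -0.33. The brightest probe set of Rbm39, a splicing coactivator, read 10.4, 10.8 and 10.6 against 5.89, 6.79 and 5.71 in wild-type grafts and 8.63, 8.38 and 8.18 against 5.4, 6.04 and 5.32 in deficient grafts (log2 -0.69 ± 0.06, SE). Its other tested probe sets differed by 0.69, 0.53, 0.09 and -0.64, so no level of the gene as a whole can be given. Hnrnpm differed by -0.70 ± 0.11. Of 23 heat shock genes 5 (21.7%) had no overlap and were lower and 2 were higher. St13, a cochaperone of Hsp70, was lower by 0.43 ± 0.06.

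Of 31 genes that answer stress of the endoplasmic reticulum or a lack of amino acids, 6 (19.4%) were lower and 1 higher with no overlap, and the median of -0.10 was near that of all genes. Hsp90b1, the chaperone GRP94, read 15.7 in each first-listed wild-type array against 10.9, 11.8 and 10.4, and 12.7, 12.8 and 13.1 against 8.53, 10.5 and 8.58 in deficient grafts (log2 -0.50 ± 0.06). Edem1, which directs misfolded glycoproteins to degradation, differed by -0.64 ± 0.09. Of 20 circadian clock genes 18 were lower, but only 2 had no overlap (10.0%), below the 14.1% of all genes. Tsc22d3, a glucocorticoid-induced clock output, read 4.86, 4.68 and 4.83 against 3.21, 2.49 and 2.70 in wild-type grafts and 3.62, 3.26 and 3.57 against 2.76, 2.74 and 2.74 in deficient grafts (log2 -0.56 ± 0.09). Per1 differed by -1.12 ± 0.45, and by -0.58 without wild-type replicate 8, where it read 0.0555.

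In the hypoxia list, 5 of 26 genes had no overlap and were lower (19.2%, against 14.1% of all genes) and 2 were higher (7.69%, against 6.81%). Hif1a, the oxygen-regulated subunit of HIF-1, read 9.29, 12.2 and 10.7 against 7.29, 7.15 and 7.19 in wild-type grafts and 9.47, 9.25 and 9.27 against 6.40, 6.38 and 6.14 in deficient grafts. The difference was 1.48-fold in each genotype (log2 -0.57 ± 0.06, SE). Of 31 NRF2 targets 2 were higher and 1 lower with no overlap. Among 30 immediate early genes 2 were higher and 1 lower with no overlap, and the standard errors of Gadd45g (-0.93 ± 0.49) and Myc (-0.99 ± 0.37) were wide. Gadd45g was at -0.47 without wild-type replicate 6 and -0.56 without deficient replicate 5, and Myc at -0.61 without deficient replicate 14.

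In metabolism, Acot2, a mitochondrial acyl-CoA thioesterase and PPARA target, read 6.06, 5.96 and 5.17 against 9.22, 8.55 and 7.52 in wild-type grafts and 5.13, 5.21 and 5.12 against 10.7, 11.6 and 10.3 in deficient grafts (log2 0.81 ± 0.09). Acads, the short-chain acyl-CoA dehydrogenase of the same list, was lower, at -0.58 ± 0.08. The whole list of 34 fatty acid oxidation genes had 2 higher and 5 lower with no overlap, and its median of 0.06 was 0.01 under median centring and was at 0 under quantile normalisation. Cholesterol synthesis had 1 higher (5.0%) and 3 lower (15.0%) of 20 with no overlap. Glycolysis and gluconeogenesis had 3 higher (15.8%) and 5 lower (26.3%) of 19. Among all genes 6.81% were higher and 14.1% lower with no overlap, so the shares of cholesterol synthesis were near those of all genes.

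Nephron markers had medians between -0.16 and -0.03, beside the -0.09 of all genes. By genotype, the loop of Henle median was 0.12 in wild-type and -0.19 in deficient grafts, and the S3 median -0.0004 and -0.28. All genes were at -0.09 and -0.08. The S1 and S2, distal and glomerular medians were below 0 in both genotypes. In the proximal tubule S1 and S2 list, 6 of 26 genes (23.1%) were lower and 2 higher with no overlap. Slc9a3, the sodium-proton exchanger of the brush border, read 6.51, 6.90 and 7.19 against 3.62, 4.58 and 4.41 in wild-type and 4.87, 5.45 and 5.35 against 3.57, 4.19 and 3.88 in deficient grafts (log2 -0.57 ± 0.08). Of 21 S3 genes 1 was higher and none lower with no overlap. Mme, the brush border peptidase neprilysin, differed by -0.91 ± 0.23 and overlapped between the sets in both genotypes. It read 2.91 to 5.15 against 1.49 to 3.48 in wild-type and 2.99 to 7.97 against 2.21 to 3.47 in deficient grafts. No loop of Henle gene of 14 tested met the no overlap rule, and 1 distal gene of 23 did, on the lower side. Of 14 glomerular genes 12 were lower, 2 with no overlap (14.3%, against 14.1% of all genes), and Podxl of podocytes differed by -0.34 ± 0.07.

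Among markers of other cells, the endothelial transcription factor Sox17 read 1.29, 1.36 and 1.47 against 0.773, 0.809 and 0.627 in wild-type grafts and 1.28, 1.07 and 1.32 against 1.06, 0.709 and 0.808 in deficient grafts (log2 -0.71 ± 0.12). Its list of 21 endothelial and smooth muscle genes had 1 higher and 3 lower with no overlap, and its median of 0.02 was -0.03 under median centring. Adgre1, an adhesion receptor and macrophage marker, differed by -0.68 ± 0.11, against the direction of most of its list. Of 24 myeloid genes 16 were higher and 8 lower, 3 and 2 of them with no overlap. The list median was 0.07, and 0.0003 with values below 1 set to 1. Of 18 lymphocyte genes 14 were higher, none with no overlap. Their median of 0.21 was 0.11 under quantile normalisation, and 0.10 and 0.13 without deficient replicate 9 and wild-type replicate 6. The chemokine Ccl5 read 0.818 to 1.28 against 1.02 to 1.76 in wild-type grafts and 0.678 to 1.22 against 1.38 to 1.72 in deficient grafts, so that only the wild-type sets overlapped. Of 39 genes that present antigen or respond to interferon, 20 were higher and 19 lower. With no overlap, 6 were higher (15.4%, against 6.81% of all genes) and none was lower (14.1% of all genes were). The list median of 0.11 was -0.04 without wild-type replicate 1. Psme2, a proteasome activator induced by interferon gamma, read 6.08, 6.39 and 6.41 against 9.09, 8.82 and 8.30 in wild-type and 6.5, 6.63 and 7.14 against 9.55, 10.8 and 8.44 in deficient grafts (log2 0.49 ± 0.06). The injury marker S100a6 differed by 0.53 ± 0.07, and its list of 28 had 2 higher and 3 lower.

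**Figure D4:**
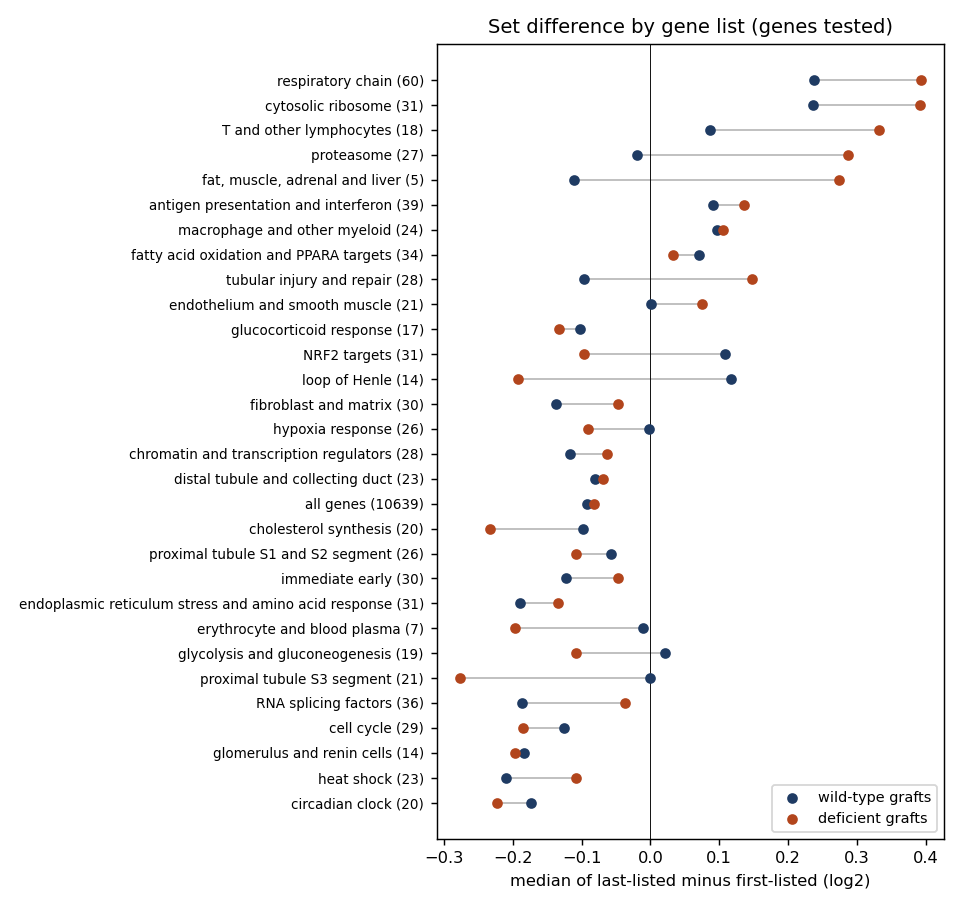
Median log2 difference of last-listed against first-listed arrays for each gene list and for all genes, with wild-type grafts in dark blue, deficient grafts in red-brown and the number of genes tested in brackets. The respiratory chain and the cytosolic ribosome lie highest in both genotypes (0.24 in wild-type, 0.39 in deficient grafts), and the medians of all genes lie at -0.09 and -0.08.

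The set difference differed in size between the genotypes for part of the probe sets. The split was selected on these same signals, so the genotype by set interaction of limma is no independent test, and its threshold (Benjamini-Hochberg over 18625 probe sets) serves only to describe how many probe sets differed and by how much. Past it were 473 probe sets (2.54%), with a set difference higher in deficient than in wild-type grafts for 349 and lower for 124. Median centring gave 270 and 582, and quantile normalisation 330 and 285, so the balance of directions depends on the scaling. Of the 349, the median set difference was 0.00 in wild-type and 0.78 in deficient grafts, and 37.8% had no listed gene. Of the 124, 101 were higher in the last-listed wild-type arrays and lower in the last-listed deficient ones.

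The 8 named genes that led this ranking had larger positive differences in deficient grafts. The set difference of deficient minus that of wild-type grafts was 2.68 ± 0.17 for Cct6a (log2, SE), 1.94 ± 0.19 for Peli2 and 1.53 ± 0.17 for Map3k12. The other five were Wtap of the RNA methylation complex (1.02), the death-domain protein Dedd (0.98), Ube3al1 (1.19), the transcriptional inhibitor Id2 (0.88) and Gnb1 (1.11). Id2 read 36.0 to 37.1 against 37.3 to 43.1 in wild-type grafts and 26.7 to 29.6 against 54.6 to 58.2 in deficient grafts, 1.11-fold and 2.04-fold higher. All these values are of single probe sets. Other tested probe sets of Gnb1 gave set differences of -0.82 and -0.24 in deficient and -0.67 and -0.44 in wild-type grafts. That of Cct6a gave -0.07 in deficient and -0.19 in wild-type grafts, and that of Peli2 -0.04 and -0.12.

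The genotype comparison, the study's own question, was also run within each set. Because the arrays of a set were selected on these signals, the p-values below rest on a division that can itself change the spread and the differences, and the gap between the 2 counts was not tested. With a common spread over 12 arrays, deficient and wild-type grafts differed for 4 probe sets (0.0215%) in the first-listed set, all lower in deficient grafts. Without adjustment, 379 were higher and 1410 lower at p under 0.05. In the last-listed set limma passed 2296 probe sets (12.3%), 1189 higher and 1107 lower. Median centring gave 648 and 2895 there. The 4 were Abcc2, Mxi1, Jund and a probe set with no listed gene, 1380865_at, and all but Jund were also called in the last-listed set. Across all probe sets the genotype differences of the 2 sets, which share no array, had a Pearson r of 0.06 and a Spearman rho of 0.06.

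Abcc2 itself was lower in deficient grafts in both sets. It read 0.787, 0.987 and 0.887 in first-listed and 0.977, 0.866 and 0.888 in last-listed wild-type arrays, and 0.0387, 0.122 and 0.163 against 0.137, 0.213 and 0.175 in deficient arrays. All 6 deficient arrays were below all 6 wild-type arrays, and deficient replicate 5 was below the floor, so the first-listed fold is understated. The log2 difference was -2.99 in the first-listed set (adjusted p = 0.000198) and -2.40 in the last-listed set (adjusted p = 6.54e-05). Mxi1, a repressor of the MYC network, was lower in deficient grafts in both sets, at 8.65, 8.75 and 8.70 against 5.48, 5.31 and 4.25 in the first and 8.83, 7.01 and 8.15 against 3.69, 3.95 and 3.62 in the last (limma adjusted p = 0.00464 and 8.61e-06).

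Jund, an AP-1 transcription factor, was called in 1 set alone. It read 23.4, 22.9 and 21.0 in the first-listed wild-type arrays and 9.12 to 13.5 in the other 9. Its genotype difference was -1.0 in the first-listed set (adjusted p = 0.00664) and -0.07 in the last-listed (adjusted p = 0.787). Jund was named after its values were seen, and the difference between the sets was not tested independently of their choice.

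**Figure D5:**
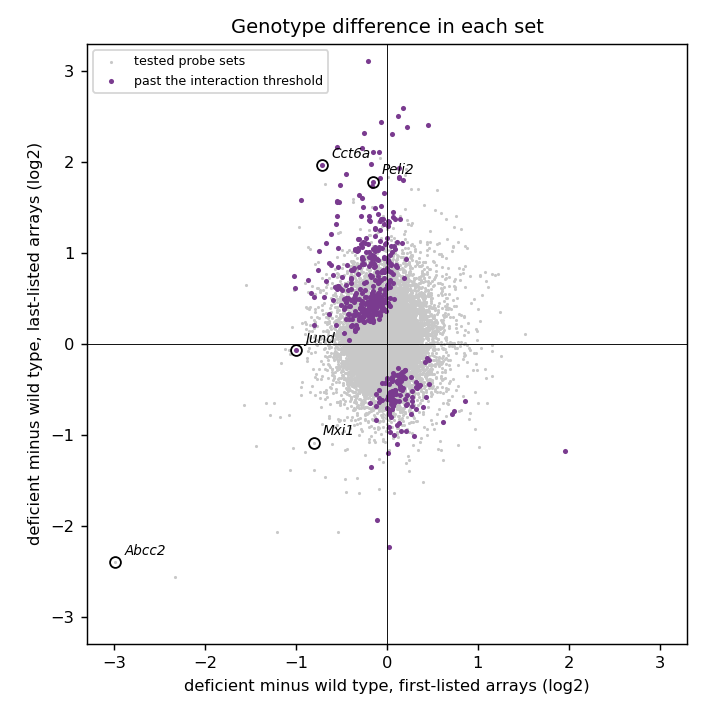
Each point is 1 of 18625 probe sets, with the log2 difference of deficient minus wild-type grafts in the first-listed arrays on the x axis and in the last-listed arrays on the y axis. The 473 probe sets past the interaction threshold are purple, and Abcc2 lies at the lower left with -2.99 and -2.40.

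With the set, chosen on these signals, as a block over all 12 arrays, genotype passed for 112 probe sets (0.601%), 38 higher and 74 lower in deficient grafts. Median centring gave 118 and 859, and quantile normalisation 92 and 55. Of the 112, 104 were also called in the last-listed set and 3 in the first-listed set. Without a set term 4 passed, all lower, namely Abcc2, Mxi1 and the unlisted 1380865_at and 1380970_at, with 624 higher and 862 lower at an unadjusted p under 0.05. With the Gapdh ratio as a covariate beside the set, limma passed 3 of those 4 (not 1380970_at), with 423 higher and 1592 lower at an unadjusted p under 0.05. Within the last-listed set the Gapdh ratio was 1.28 to 1.36 in deficient and 1.64 to 1.88 in wild-type arrays. The fit therefore cannot tell the ratio and genotype apart in that set. With the set alone as block, the 12 counts that each left out 1 array ran from 6 to 173, so single arrays decide this count. It fell to 6 without wild-type replicate 6, 4 or 7 or deficient replicate 3, and to 9 and 12 without deficient replicate 14 and wild-type replicate 9. It was 29, 32, 50, 54 and 58 without deficient replicate 11, wild-type replicate 8, deficient replicates 10 and 5 and wild-type replicate 1, and 173 without deficient replicate 9.

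Among the genes that passed with the block, Ckb was lower in deficient grafts by 0.72 ± 0.11 on the log2 scale (SE, limma adjusted p = 0.028), in addition to its difference between the sets. Ccni, a cyclin, was lower by 0.64 ± 0.09 (adjusted p = 0.0104), and Slc13a2, the citrate transporter of the brush border, and Pcgf6 were lower by 0.45 and 0.63. Higher in deficient grafts were Tufm, the mitochondrial elongation factor (0.51), Aadac (0.51), Tmem205 (0.36), Dpm3 (0.37), Mylk2 (0.95) and Vof16 (0.97). These p-values rest on a block chosen on the same signals. Without a set term none of these genes passed (limma adjusted p = 0.465 to 0.614). With the Gapdh ratio beside the set none passed either (limma adjusted p = 0.105 to 0.221).

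Among detoxification genes named after their values were seen, Gsta3, a glutathione transferase, read 0.672, 0.822 and 0.776 in first-listed and 0.917, 0.623 and 0.974 in last-listed wild-type arrays, and 1.89, 1.57 and 1.36 against 2.24, 1.20 and 1.07 in deficient arrays. All deficient arrays were above all wild-type arrays, and the difference with the block was 0.93 ± 0.17 (adjusted p = 0.0318). Hmox1 and Gstp1, haem oxygenase and another glutathione transferase, were higher by 0.97 ± 0.21 and 0.79 ± 0.15 (adjusted p = 0.0462 and 0.0386). The first-listed and last-listed sets gave differences of 1.08 and 0.79 for Gsta3, 1.19 and 0.75 for Hmox1, and 1.04 and 0.54 for Gstp1. Without a set term none of the 3 passed (adjusted p = 0.161, 0.465 and 0.56).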

How the data were processed

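The deposited values are probe set signals (intensity, linear scale) of 12 arrays; the authors used MAS5 and GCOS, per the submitters' processing notes, which give no versions. No source used here states the scaling between arrays. Each value below the 20th percentile of all values (0.0694) was set to it, log2 was taken, and probe sets with a mean log2 under the 40th percentile (-2.53) were left out, which kept 18625. No further normalisation was applied. Differences were fitted with limma 3.58.1 in R 4.3.3, with a variance trend, over 4 groups (genotype by set) or with genotype and set as additive terms, and p-values were adjusted by Benjamini-Hochberg at 0.05. The code was tested on simulated data. Genes came from the platform annotation with symbols updated through Entrez. Of 31042 probe sets other than controls, 20826 had 1 gene, 436 several and 9780 none listed. For gene lists the probe set with the highest mean was used. Arrays entered a genotype and a set by their labels' replicate numbers.

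The named genes are the 12 with the largest difference in each direction with no overlap in both genotypes, the 2 largest of each list, the 8 lowest interaction p-values (a ranking only), and Abcc2 with the 6 lowest p-values in each direction with the set as block; Gsta3, Hmox1, Gstp1 and Jund were added after values were seen. Members and lists were chosen with earlier results of these data known. Alternatives were other floors, no filter, median centring, quantile normalisation, array weights, no trend, other thresholds and leaving out each array.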

Additional observations from a re-analysis of the deposited data

Results flagged for a closer look

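The set difference of deficient and wild-type grafts differed past the threshold of the limma interaction for 473 probe sets. The sets were selected on these same signals, so this is a description and no independent test. The values below are of single probe sets, and other tested probe sets of Cct6a, Peli2 and Gnb1 differed otherwise. For the named genes the difference on the log2 scale, deficient minus wild type, was 2.68 for Cct6a, 1.94 for Peli2, 1.02 for Wtap, 0.975 for Dedd, 1.19 for Ube3al1, 0.876 for Id2, 1.11 for Gnb1 and 1.53 for Map3k12. Poly-A control transcripts, bacterial RNAs added before labelling, were 6.33-fold higher in deficient than in wild-type arrays, and 5.61-fold and 7.15-fold higher in the first-listed and last-listed sets. They were not used in any comparison above.

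Single arrays lay far from the other 5 of their genotype by Dixon's test, which flags about 1 in 20 groups by chance. In wild-type grafts these were replicate 4 for Thoc3 (0.0607), Abcc3 (0.0395) and the hybridisation controls (13.4), replicate 8 for Per1 (0.0555), replicate 1 for Tm7sf2 (2.12) and Gmnn (0.0682), and replicate 7 for Mxi1 (7.01). In deficient grafts it was replicate 14 for Slc39a4 (0.0586), Myc (0.0376) and the median log2 signal of the tested probe sets (-0.167). Many genes and array measures were looked at, so some or all of these flags can be chance.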

How the results depend on the processing

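No paired analysis was possible because the genotypes share only replicate number 9. The 334 probe sets past 1.5-fold in both genotypes became 95 with values below 1 set to 1, 530 without the level filter, 16 at 2-fold, 3371 when no overlap at any fold was asked for, and 320 to 438 with 1 array left out. The 473 interaction calls became 852 with median centring, 254 without the variance trend and 264 to 521 with 1 array left out (278, 302 and 290 without wild-type replicates 6, 9 and 8, and 264 and 307 without deficient replicates 11 and 3). The 112 genotype calls with the set as block became 71 with values below 1 set to 1, 20 without the filter, 977 with median centring, 5 without the trend, 4 without a set term, 3 with the Gapdh ratio and 6 to 173 with 1 array left out. The 4 first-listed calls became 26 with values below 1 set to 1, 7 with quantile normalisation, 68 with array weights, 2 without the trend and 3 to 6 with 1 array left out. The 2296 last-listed calls became 1464 with values below 1 set to 1, 3543 with median centring, 1404 without the trend and 1266 to 2279 with 1 array left out (1266 without wild-type replicate 8, 1309 and 1502 without deficient replicates 3 and 14). The median of 0.319 for the respiratory chain became 0.266 with median centring, 0.125 with quantile normalisation and 0.29 to 0.337 with 1 array left out, and that of 0.316 for the ribosome 0.263, 0.111 and 0.299 to 0.326. The cause of these moves was not tested. Of 29 list medians 11 changed sign under some alternative, each of them small as reported (endothelium 0.0216 to -0.0317 with median centring, antigen presentation 0.106 to -0.037 without wild-type replicate 1, NRF2 targets -0.0183 to 0.013 without deficient replicate 14, glucocorticoid response 0.00582 to -0.202 without deficient replicate 9). Of 99 set differences of named genes 1 did, Gsta3 (-0.0183 to 0.0833 without deficient replicate 14). No interaction or blocked genotype difference of a named gene did. Of the 12 genes named for genotype with the block, calls were lost in 49 of 144 values with 1 array left out and in 21 of 84 under other alternatives. Signals near the floor limit the least abundant genes.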
